A study of Mus musculus with 27 samples.

Results

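MHC class I presents peptides from inside the cell at its surface. The 10 genes described here encode its heavy chains, its light chain, the machinery that loads it with peptide and its transcriptional activator. They were taken by symbol from the deposited table of normalised counts (H2-K1, H2-D1, H2-Q6, H2-Q7, H2-T22, H2-T23, B2m, Tap1, Tapbp and Nlrc5), where they were 10 of 23995 genes. All 10 were among the 14668 genes that reached a normalised count of 10 in 3 or more libraries, which were tested.

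RNA came from microglia, the resident macrophages of the brain, shaken off mixed glial cultures of neonatal mouse cortex. Donors were wild-type C57BL/6J mice or B6.Cg-Cnr2tm1Zim mice, labelled CB2-/-, which carry a targeted allele of Cnr2, the gene for cannabinoid receptor 2. Cells of each genotype were left unstimulated or were treated for 16 h with CpG (1 nmol/ml), PolyI:C, or interferon-γ (20 ng/ml) combined with E. coli LPS (100 ng/ml), which the series names as activators of TLR9, TLR3 and TLR4, so that responses of the 2 genotypes could be compared. There were 27 libraries in 9 groups of 3. Wild-type libraries are numbered 3012 to 3014 (unstimulated), 3015 to 3017 (LPS plus interferon-γ), 3018 to 3020 (CpG) and 3021 to 3023 (PolyI:C). Those labelled CB2-/- are numbered 2048 to 2050 (unstimulated), 2051 to 2053 (LPS plus interferon-γ), 2054 to 2056 (CpG) and 2057 to 2059 (PolyI:C). A second unstimulated wild-type group, numbered 2186 to 2188, was kept apart: wild-type responses were measured against 3012 to 3014, and unstimulated cells labelled CB2-/- were compared with 2186 to 2188. Among stimulated cells, genotype and number series cannot be told apart. In the unstimulated comparison each genotype likewise has library numbers of its own (2048 to 2050 and 2186 to 2188). Genotype and any difference between these sets of libraries cannot be told apart there either. Whether the 3 libraries of a group are separate animals or cultures is not stated in the labels, and the p-values therefore describe spread among libraries, which may be technical.

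A class I molecule consists of a heavy chain, β2-microglobulin and a peptide made in the cytosol mainly by the proteasome. The TAP transporter carries peptides into the endoplasmic reticulum, where tapasin holds empty class I molecules next to it. Interferons are the classic inducers of these genes, acting through IRF1 and through NLRC5, which joins the factors bound to class I promoters, and resting microglia are known for low class I levels that rise on activation.

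Summed normalised counts ran from 6341300 to 14152000 per library, and 13628 to 20643 genes were above 0. The number of reads behind a value was not recovered. In 9 of the 15 libraries outside the 3012 to 3023 series 1 gene model, Gm19220, took the largest share of the sum, up to 31.3% in 1 PolyI:C library labelled CB2-/- (number 2058). Cnr2 itself was read at normalised counts of 172 to 233 in the 6 unstimulated wild-type libraries, 0 to 21.96 in stimulated wild type, 317 to 454 in unstimulated cells labelled CB2-/- and 217 to 412 in stimulated ones. The table sums a whole gene, and the labels do not say which part the allele removes, so Cnr2 does not check the genotype, which rests on the labels. Microglial markers (9 genes, among them Cx3cr1 and Csf1r) summed to 28539.5 to 100019 in every library, while Cd3d, the T-cell gene of the table's T and NK cell markers, stayed at or below 4.01. Astrocyte and fibroblast markers were uneven within wild-type groups: the fibroblast list (6 genes) summed to 13.4 to 2891 in libraries 3012 to 3014 and to 12.1 to 2111 after CpG, and its part in the results was not tested. In bulk RNA, fewer cells of a type and less RNA per cell cannot be told apart.

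On the GRCm38 mouse genome, 8 of the 10 genes lie in the MHC on chromosome 17. From Tapbp (33915899-33929292) the order runs through H2-K1 (33996017-34000347), Tap1 (34187553-34197225), H2-D1 (35262730-35267499), H2-Q6 (35424850-35430055), H2-Q7 (35439155-35443773) and H2-T23 (36029773-36032855) to H2-T22 (36037128-36042747). B2m is on chromosome 2 (122147686-122153083) and Nlrc5 on chromosome 8 (94434356-94527272). Class I heavy chain genes are close copies of one another. Of all 31-base words in the annotated transcripts of a gene, the share also found in another gene was 51.0% for H2-T22 (47.2% in H2-T10 alone), 50.3% for H2-Q6, 39.1% for H2-Q7, 26.7% for H2-D1, 24.5% for H2-T23 and 22.8% for H2-K1. It was 4.62% for Tapbp, 0.825% for Tap1 and 0 for B2m and Nlrc5. Reads of the heavy chains may therefore be divided between copies, and the values of H2-Q6, H2-Q7 and H2-T22 are the least certain.

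Promoters are shown because the 10 genes rose together under 2 of the stimuli. RefSeq promoter sequences (GRCm38.p6) matched 9 of the 10 members, Nlrc5 being the other. The 300 bases of each entry, 250 before the start and 50 after it, were searched on both strands for 5 short motifs. These RefSeq starts are not always the ends of the gene positions given above. The upstream windows of Tapbp (33919228-33919477) and H2-D1 (35262844-35263093) lie inside those positions, and that of H2-T23 reaches well into its own. The 250 upstream bases are shown, and the counts and shares given below are of these 250 bases. H2-K1 had 2 starts, of which the first is shown. No 2 of these motifs overlap in the sequences shown. Capitals mark an NF-κB-like site of 10 bases, an ISRE-like site (GAAA, any 2 bases, GAAA, as in the interferon-stimulated response element), TGACG (the core of a cyclic AMP element, as in the X2 box) and CCAAT (the Y box), in either orientation. H2-K1, B2m and Tap1 stand for a classical heavy chain, the light chain and peptide transport. H2-Q6, H2-Q7 and H2-T23 were added after their values were seen, the first pair as the heavy chains with the largest response to PolyI:C in wild type and H2-T23 as the one that fell furthest after CpG.
H2-K1 (chr17:34000348-34000597, strand minus): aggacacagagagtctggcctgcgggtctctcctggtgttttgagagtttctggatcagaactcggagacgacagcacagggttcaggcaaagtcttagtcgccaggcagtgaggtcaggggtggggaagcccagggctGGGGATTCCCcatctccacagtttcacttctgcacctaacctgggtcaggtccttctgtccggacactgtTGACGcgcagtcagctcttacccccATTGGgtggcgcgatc
H2-Q6 (chr17:35424600-35424849, strand plus): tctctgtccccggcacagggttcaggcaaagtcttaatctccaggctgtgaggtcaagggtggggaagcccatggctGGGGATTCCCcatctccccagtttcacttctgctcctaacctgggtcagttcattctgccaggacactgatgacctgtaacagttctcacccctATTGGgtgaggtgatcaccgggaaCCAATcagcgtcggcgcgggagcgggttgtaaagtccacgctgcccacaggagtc
H2-Q7 (chr17:35438905-35439154, strand plus): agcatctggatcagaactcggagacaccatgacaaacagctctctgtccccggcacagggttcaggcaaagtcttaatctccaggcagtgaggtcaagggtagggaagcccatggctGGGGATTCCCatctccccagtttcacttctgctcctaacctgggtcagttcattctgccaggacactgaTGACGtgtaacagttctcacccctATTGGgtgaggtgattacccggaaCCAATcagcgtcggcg
H2-T23 (chr17:36032702-36032951, strand minus): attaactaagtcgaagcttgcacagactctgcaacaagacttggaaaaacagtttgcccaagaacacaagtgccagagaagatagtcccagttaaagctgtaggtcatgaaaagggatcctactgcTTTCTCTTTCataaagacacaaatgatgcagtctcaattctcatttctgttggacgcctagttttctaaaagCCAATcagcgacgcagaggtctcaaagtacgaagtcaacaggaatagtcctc
B2m (chr2:122147437-122147686, strand plus): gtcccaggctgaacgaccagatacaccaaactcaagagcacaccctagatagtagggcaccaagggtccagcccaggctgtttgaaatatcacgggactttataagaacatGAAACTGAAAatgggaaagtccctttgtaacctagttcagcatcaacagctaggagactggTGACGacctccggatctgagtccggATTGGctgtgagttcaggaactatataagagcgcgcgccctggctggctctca
Tap1 (chr17:34187306-34187555, strand plus): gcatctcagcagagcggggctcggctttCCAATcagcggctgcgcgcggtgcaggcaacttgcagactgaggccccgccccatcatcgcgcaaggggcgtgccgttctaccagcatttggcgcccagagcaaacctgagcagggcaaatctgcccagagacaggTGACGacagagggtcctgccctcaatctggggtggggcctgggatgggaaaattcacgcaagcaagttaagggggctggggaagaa

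The NF-κB-like 10 bases were found in 4 of the 9 promoters (H2-K1, H2-D1, H2-Q6 and H2-Q7), against 0.0852% of 32851 mouse promoters of the same length. These 4 are related copies, so they are not separate cases. The ISRE-like spacing was found in B2m, H2-T22 and H2-T23, against 2.98% of all promoters. Only this exact spelling was searched, and near matches such as the tttcacttct of H2-K1, H2-Q6 and H2-Q7 were not counted. A missing match therefore does not mean that a site is absent. TGACG stood in 6 of the 9 (B2m, H2-D1, H2-K1, H2-Q7, H2-T22 and Tap1; 17.8% of all), and CCAAT in 9 of 9 (33.8% of all). TTCNNNGAA, the spacing of a STAT site (GAS), was in none of the 9 windows (7.02% of all). H2-Q6 and H2-Q7 differ in that the TGACG of H2-Q7, 64 bases before its start, has no match in H2-Q6. A match is a string of letters in this window and shows no binding.

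**Figure D1:**
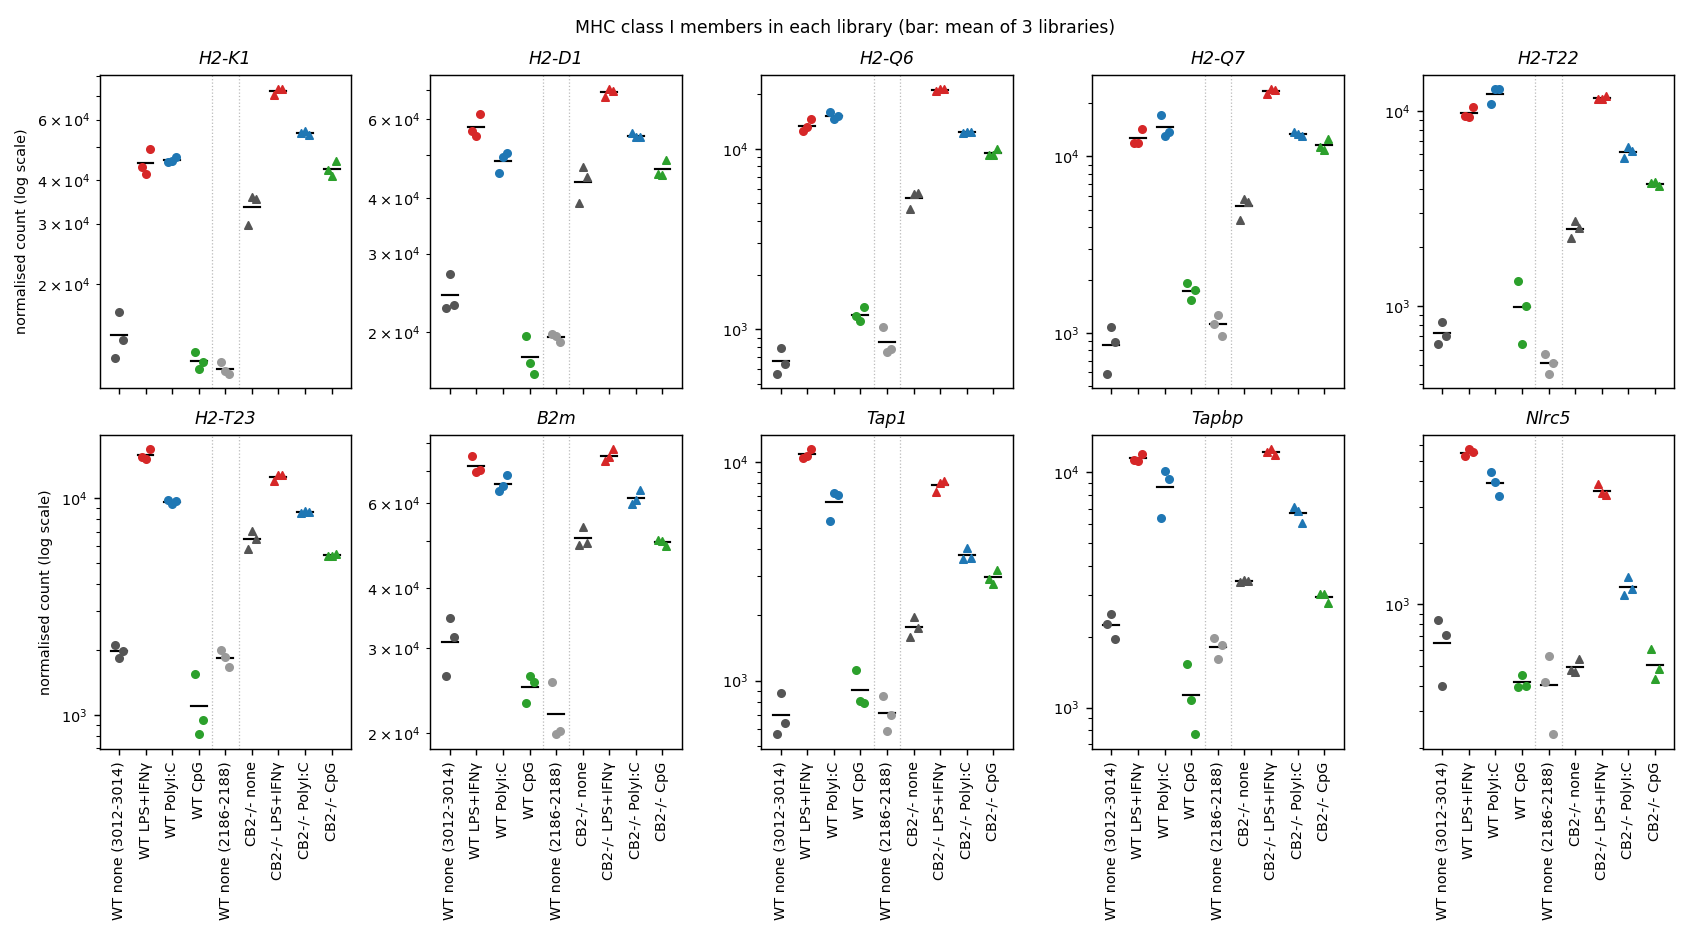
Normalised count (log scale) of each of the 10 genes in each of the 27 libraries, 1 panel per gene, with wild-type libraries as circles, libraries labelled CB2-/- as triangles, and a bar at the mean of each group of 3. All 10 genes stand above unstimulated cells after LPS plus interferon-γ in both genotypes, and all but Nlrc5 are higher in unstimulated cells labelled CB2-/- than in either unstimulated wild-type group.

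In wild-type microglia, LPS plus interferon-γ raised all 10 genes, with no overlap between treated and unstimulated libraries. Of all genes tested, 21.7% were called higher. The share of all genes without overlap was not computed, here or in the comparisons below, so overlap only describes the libraries. The median log2 change of the 10 was 3.08, against 0.05 over all genes tested. The microglial marker sum was 85173 to 100019 in the unstimulated libraries and 45684 to 47395 after treatment, and its part was not tested. The sum joins markers that moved in opposite directions. Of its 10 entries, 2 of them Itgam, 3 were called higher and 7 lower. Mean counts of the main Itgam entry went from 12429 to 19879, and those of Cx3cr1 from 7886 to 244. Changes here and below are differences of log2(normalised count + 1) with their standard errors over 3 libraries a group, from a limma fit with Benjamini-Hochberg adjusted p-values, and genes with such a value below 0.05 are termed called.

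H2-Q6, a heavy chain of the Qa-2 family, moved furthest. It read 567, 789.5 and 642 in the 3 unstimulated libraries and 12619.8, 13139 and 14591 after LPS plus interferon-γ, a change of 4.34 ± 0.12 or 20.3-fold (limma adjusted p = 6.61e-19). Its neighbour H2-Q7 went from 589, 1086 and 891 to 11984, 11842 and 14245 (3.93 ± 0.16). The lowest treated library thus stood far above the highest unstimulated one in both. H2-T22, a non-classical chain seen by some γδ T cells, rose by 3.75 ± 0.17, and H2-T23, which encodes Qa-1, the ligand of the CD94/NKG2 receptors of natural killer cells, rose 8.02-fold, from 2104, 1834 and 1975 to 15510.2, 15124 and 16764.

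The classical chains that present peptide to CD8 T cells rose by smaller factors from higher counts. H2-K1 read 12207, 16654 and 13796 unstimulated and 43807, 41628 and 49168 treated, 3.17-fold (1.67 ± 0.11). H2-D1 went from 22643, 26921 and 22982 to 56417, 55053 and 61643, 2.39-fold. B2m, the light chain shared by all of these, had the smallest change of the 10, 2.33-fold (1.22 ± 0.11, limma adjusted p = 3.09e-09), from 26224, 34678 and 31622 to 74928, 69710.1 and 70070.2.

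Among the loading genes, Tap1, a subunit of the peptide transporter, rose 15.9-fold, from 568, 877 and 638 to 10474, 10696 and 11412 (3.99 ± 0.16). Tapbp, which encodes tapasin, rose 5.14-fold, from 2258, 2501 and 1965 to 11255, 11201 and 11929. The activator Nlrc5 rose 8.88-fold (3.15 ± 0.23), and its unstimulated libraries were the most uneven of the 10, at 841, 400.0 and 706 against 5272, 5707 and 5548 after treatment.

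The rest of the pathway was followed on 3 lists. Of 13 genes for peptide supply and loading, all 13 were called higher (median log2 change 2.32), among them the other transporter subunit Tap2 (3.08) and the immunoproteasome subunits Psmb8 (2.68), Psmb9 (2.79) and Psmb10 (2.64). Of 15 tested other class I and class I-like chains, 10 were higher and 3 lower. Over all 14668 genes tested, 2644 were called lower, a share near that of these chains. The lowest were Hfe, an iron-sensing class I-like protein (-4.43), and Mr1, which presents vitamin B metabolites (-2.90). Of 21 genes for transcription and interferon signalling, 11 were higher and 2 lower, with Ciita, the class II activator, at the top (5.30). Tap2 and the Psmb genes were named after their values were seen, for their place beside Tap1.

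PolyI:C raised all 10 genes in wild type as well, again without overlap, against 21.2% of all genes called higher, with a median log2 change of 2.47 against -0.06 over all genes. The microglial marker sum was 40662 to 54775 after PolyI:C, below the unstimulated 85173 to 100019, and its part was not tested. Of its 10 entries 3 were called higher and 7 lower. The 3 responses of a genotype share their unstimulated libraries, so they are set side by side and their likeness is no separate result. H2-Q6 reached 16044, 14595 and 15112, 23.1-fold (4.53 ± 0.12). H2-Q7 reached 17116, 13112 and 13694 (4.13 ± 0.16), and H2-T22 10835, 12945 and 12957 (4.08 ± 0.17). These 3 non-classical chains were the highest changes of the 10.

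H2-T23 rose to 9826, 9416 and 9659.6 (2.29 ± 0.14) and H2-K1 to 45138, 45438 and 46753, 3.25-fold. H2-D1 rose 2.01-fold (1.00 ± 0.10), the smallest change here, and B2m 2.15-fold. Tap1 rose to 5345, 7191 and 7052 (3.24 ± 0.16) and Tapbp to 6402, 10122 and 9327 (1.92 ± 0.17). In both loading genes library 3021 was the lowest of the 3. Nlrc5 rose to 4428, 3963 and 3393 (2.65 ± 0.23), where library 3021 was the highest.

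On the pathway lists, 12 of 13 supply and loading genes were called higher and 0 lower (median 1.18), and 11 of 15 other chains were higher and 3 lower. Over all 14668 genes tested, 2924 were called lower, again a share near that of the chains. The far ends were H2-M2, a chain at low counts (6.18), and H2-T10 (4.78), the closest copy of H2-T22, against Hfe (-3.45) and Mr1 (-2.54). Transcription genes gave 10 higher and 2 lower of 21.

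CpG split the group. Only H2-Q6 and H2-Q7 were called higher in wild type, while H2-D1, H2-T23, B2m and Tapbp were called lower and 4 genes were not called. Of all genes tested, 16.5% were called higher and 19.6% lower, and the median of the 10 was -0.27 against -0.09 over all genes. The share of the 10 called higher was thus near that of all genes.

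H2-Q6 rose to 1186, 1113 and 1321, 1.82-fold (0.87 ± 0.12, limma adjusted p = 2.36e-06), and H2-Q7 to 1929, 1534 and 1747, 2.08-fold. Both groups lay above all unstimulated libraries. Tapbp fell to 1536, 1077 and 769, 2.06-fold lower (-1.04 ± 0.17, limma adjusted p = 3.23e-05), and H2-T23 to 1543, 812 and 946, 1.86-fold lower (-0.89 ± 0.14). H2-D1 fell to 19612, 16993 and 16109 (-0.46 ± 0.10) and B2m to 23046, 26223 and 25529.9 (-0.30 ± 0.11, limma adjusted p = 0.0413). The highest CpG library of B2m, at 26223, lay within 1 count of the lowest unstimulated one, at 26224, and the B2m call was lost under quantile scaling (log2 change -0.14), with the compared libraries alone, with unstimulated wild type pooled (-0.05), and without library 3013, 3014, 3018 or 3020 (limma adjusted p up to 0.186). H2-D1 was not called with the compared libraries alone (limma adjusted p = 0.133) or with unstimulated wild type pooled (0.0652).

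The 4 genes not called overlapped unstimulated cells: H2-K1 (-0.23 ± 0.11), H2-T22 (0.40 ± 0.17), Tap1 (0.39 ± 0.16) and Nlrc5 (-0.57 ± 0.23), with limma adjusted p-values of 0.0562 to 0.096. Nlrc5 read 394, 454 and 401 after CpG. With library weights all 10 were called, 4 of them higher, where 5461 of the 14668 genes tested were called in either direction (5285 in the main fit). On the supply and loading list 6 of 13 were higher and 4 lower. Psme2, a proteasome activator subunit, was highest of that list (1.67), and the chaperones calreticulin (Calr, 1.01) and calnexin (Canx, 0.84), which fold heavy chains, lay beside it. Of 15 other chains 2 were higher and 5 lower, with Mr1 (-3.09) and the H2-K2 gene (-2.92) lowest. Of 21 transcription genes 3 were higher and 11 lower. Calr and Canx were named after their values were seen.

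Set directly against each other in wild type, LPS plus interferon-γ and PolyI:C differed in 2 of the 10 genes (5.35% of all genes were higher after LPS plus interferon-γ). H2-T23 was 1.64-fold and Tap1 1.68-fold higher after LPS plus interferon-γ (limma adjusted p = 0.00135 and 0.00219). The 95% intervals of the other 8 differences on the log2 scale were -0.25 to 0.19 for H2-K1, 0.04 to 0.47 for H2-D1, -0.43 to 0.06 for H2-Q6, -0.54 to 0.13 for H2-Q7, -0.67 to 0.01 for H2-T22, -0.11 to 0.35 for B2m, 0.08 to 0.79 for Tapbp and 0.01 to 0.98 for Nlrc5. Libraries of the 2 stimuli overlapped in H2-K1 and H2-Q7 and did not in the other 8 genes, called or not. As the share of all genes without overlap was not computed, these 8 cannot be set against it. As many as 5 were called with library weights and with the authors' batch-corrected table. In those fits 2755 and 2187 of the 14668 genes tested were called in either direction, against 1358 in the main fit. All 10 were higher after LPS plus interferon-γ than after CpG (19.7% of all genes), by 1.52 (B2m) to 3.90 (H2-T23), and after PolyI:C than after CpG (17.6%), by 1.40 (B2m) to 3.68 (H2-T22).

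**Figure D2:**
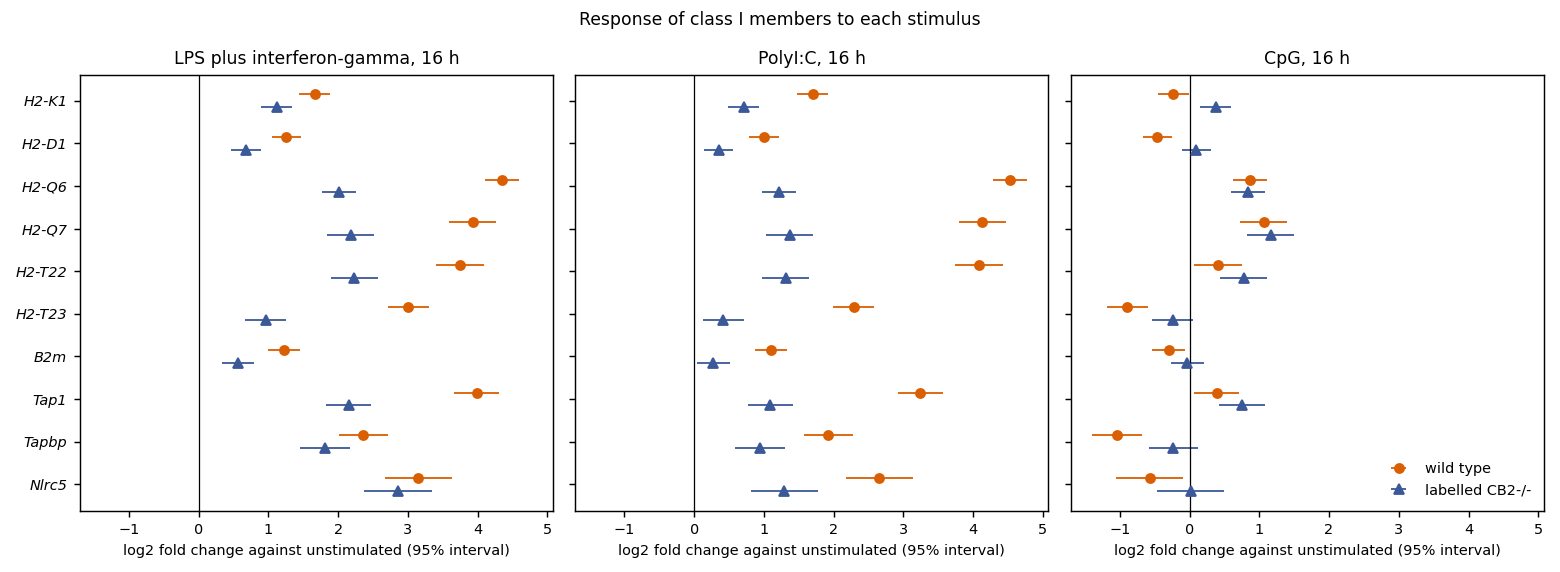
Log2 fold change of each gene against unstimulated cells of the same genotype after each stimulus, with 95% intervals from limma, wild type as circles and libraries labelled CB2-/- as triangles. All 20 points lie right of 0 for LPS plus interferon-γ, from 0.57 to 4.34, whereas the CpG points of wild type run from -1.04 to 1.06.

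In cells labelled CB2-/-, LPS plus interferon-γ also raised all 10 genes without overlap, against 12.8% of all genes, with a median log2 change of 1.91 (0.03 over all genes). The microglial marker sum went from 47155 to 51681 unstimulated to 28539.5 to 30680.4, and to 38549 to 41123.5 after PolyI:C and 31867 to 32653.5 after CpG, and its part was not tested. Nlrc5 rose most, 7.24-fold, from 479.7, 465 and 541 to 3855, 3511 and 3401 (2.86 ± 0.23). H2-Q6 went from 4662, 5585 and 5686 to 20988, 21508 and 21330.3, 4.02-fold, and Tap1 from 1591, 1954 and 1747 to 7316, 7989.8 and 8200.4, 4.45-fold. In each of these genes the lowest treated library lay far above the highest unstimulated one.

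On the log2 scale H2-T22 (2.23) and H2-Q7 (2.18) came after Nlrc5, then Tap1 (2.15), H2-Q6 (2.01), Tapbp (1.81) and H2-K1 (1.12), H2-K1 going from 29683, 35681 and 35287 to 70696, 73652 and 73520.5. The smallest changes were those of H2-T23 (0.96 ± 0.14), H2-D1 (0.67 ± 0.10) and B2m (0.57 ± 0.11), the last from 49209, 53629.6 and 49609.8 to 73462, 74615 and 77499.7. Under quantile scaling H2-D1 (0.19) and B2m (0.38) were no longer called. Of the pathway lists, 11 of 13 supply and loading genes were higher and 0 lower, 8 of 15 chains higher and 3 lower, and 10 of 21 transcription genes higher and 1 lower, Irf1 foremost (4.29). Over all 14668 genes tested, 1592 were called lower.

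PolyI:C raised 8 of the 10 in these cells (5.11% of all genes), from 0.35 for H2-D1 to 1.37 for H2-Q7, with a median of 1.02 over the 10. H2-Q6 reached 12207, 12319 and 12450.1, 2.33-fold, and Nlrc5 1107, 1353 and 1193, 2.45-fold (1.29 ± 0.23). H2-T23 (0.42 ± 0.14, limma adjusted p = 0.0737) and B2m (0.28 ± 0.11, 0.151) were not called, although their treated libraries lay above all unstimulated ones. Both were called with library weights and with the batch-corrected table, whereas the H2-D1 call was lost under quantile scaling (0.19), with the compared libraries alone, and without library 2048, 2050, 2057, 2058 or 2059 (limma adjusted p up to 0.187), which left 7 called. The lists gave 7 of 13 supply and loading genes, 8 of 15 chains and 5 of 21 transcription genes higher, and 0 lower on each.

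After CpG, 5 of the 10 were called higher and 0 lower in cells labelled CB2-/- (6.82% of all genes higher, 7.44% lower). H2-Q7 rose to 11304, 10940.4 and 12559 (1.16 ± 0.16) and H2-Q6 to 9257, 9214 and 9995 (0.84 ± 0.12), as the pair did in wild type. H2-T22 (0.77), Tap1 (0.75) and H2-K1 (0.37) rose by less, and the H2-K1 call was lost without library 2048, 2054 or 2056 (limma adjusted p up to 0.135), which left 4. H2-D1, H2-T23, B2m, Tapbp and Nlrc5 lay between -0.24 and 0.10 and were not called, and Nlrc5 read 602, 430.2 and 481. H2-T23 and Tapbp nevertheless read lower in every CpG library than in any unstimulated one. H2-T23 ran from 5401 to 5521 against 5841 to 7078, and Tapbp from 2772 to 3034 against 3417 to 3499. The lists gave 4 of 13 supply and loading genes higher and 1 lower, 6 of 15 chains higher and 4 lower, and 3 of 21 transcription genes higher and 2 lower.

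Between stimuli in these cells, 9 genes were higher after LPS plus interferon-γ than after PolyI:C (6.95% of all genes). The differences ran from 0.32 for H2-D1 to 1.56 for Nlrc5, and B2m was not called (0.29 ± 0.11, limma adjusted p = 0.107). The H2-D1 call was lost with any 1 of the 6 compared libraries left out (limma adjusted p = 0.0826 to 0.127), which left 8. Under quantile scaling H2-D1 (0.00014), H2-K1 (0.22) and H2-T23 (0.26) were not called. All 10 were higher after LPS plus interferon-γ than after CpG (6.36%), although quantile scaling turned H2-D1 to -0.08 (limma adjusted p = 0.854) and ended the calls of H2-K1 (0.30) and B2m (0.15). PolyI:C exceeded CpG in 6 (6.39%): H2-K1, H2-Q6, H2-T22, H2-T23, Tapbp and Nlrc5. That count fell to 3 when any 1 of the 6 compared libraries was left out.

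Before any stimulus, 9 of the 10 genes were higher in cells labelled CB2-/- than in wild-type libraries 2186 to 2188, and the groups did not overlap in any of the 9. Of all genes, 6.25% were called higher, and the median of the 10 was 1.44 against -0.05 over all genes tested. H2-Q6 read 4662, 5585 and 5686 against 1027, 752 and 780.2, 6.26-fold higher (2.65 ± 0.12, limma adjusted p = 2.18e-13). H2-T22 read 2229, 2723 and 2512 against 571, 451 and 514 (2.28 ± 0.17), and H2-Q7 4361, 5731 and 5554 against 1131, 1268 and 963 (2.22 ± 0.16). The 4 non-classical chains, H2-T23 included, had the highest values of the 10.

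H2-T23 was 3.52-fold higher (1.82 ± 0.14). H2-K1 read 29683, 35681 and 35287 against 11922, 11258 and 11012, 2.94-fold higher, and H2-D1 38854, 46879 and 44552 against 19754, 19547 and 19014, 2.23-fold. B2m read 49209, 53629.6 and 49609.8 against 25579, 19876 and 20174, 2.34-fold higher (1.22 ± 0.11). Every unstimulated library labelled CB2-/- therefore stood above any unstimulated wild-type library for B2m, H2-K1 and H2-D1, including 3012 to 3014.

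Tap1 read 1591, 1954 and 1747 against 849, 586 and 697 (1.32 ± 0.16), and Tapbp 3417, 3499 and 3465 against 1981, 1614 and 1851 (0.94 ± 0.17). Nlrc5 was the exception, at 479.7, 465 and 541 against 418, 558 and 232, with groups that overlap (0.38 ± 0.23, 95% interval -0.10 to 0.87, limma adjusted p = 0.335). The count stayed at 9 under every alternative run and with each library left out.

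Markers of other cells moved with this comparison. Astrocyte markers (7 genes) summed to 188 to 299 in unstimulated cells labelled CB2-/- against 1487 to 2609 in libraries 2186 to 2188, and fibroblast and meningeal markers (6 genes) to 58.3 to 93.4 against 691 to 2475. Of these 13 genes 1 was called lower. Summed microglial markers were 47155 to 51681 against 50489 to 66530.0. The part of these cells in the class I differences was not tested. On the pathway lists 8 of 13 supply and loading genes were higher and 0 lower, 6 of 15 chains higher and 0 lower, and 4 of 21 transcription genes higher and 3 lower. Over all 14668 genes tested, 535 were called lower. The list counts depend on the wild-type group used. Against the other unstimulated wild-type group, libraries 2186 to 2188 had 0 higher and 6 lower of the 13 supply and loading genes. Of the 15 chains 0 were higher and 4 lower there, and of the 21 transcription genes 0 and 6. In cells labelled CB2-/- against libraries 2186 to 2188, H2-T10 was the highest (3.39) and Irf1 stood at 0.22 (limma adjusted p = 0.559). H2-T10 was itself lower in libraries 2186 to 2188 than in the other unstimulated wild-type group (-1.77, limma adjusted p = 0.000672). The size of its difference therefore depends on the wild-type group used. Irf1 was named after its value was seen.

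Responses of the 2 genotypes started from different unstimulated levels. The rise after LPS plus interferon-γ was smaller in cells labelled CB2-/- for 8 of the 10 (8.36% of all genes had a lower response), and after PolyI:C for all 10 (13.9%). These differences share the unstimulated libraries labelled CB2-/- with the comparison above, so they are not independent of it. For H2-Q6 the response difference was -2.34 ± 0.17 after LPS plus interferon-γ and -3.31 ± 0.17 after PolyI:C (limma adjusted p = 1.28e-09 and 8.30e-13).

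The levels reached did not all follow the size of the response. After LPS plus interferon-γ, H2-Q6 read 20988, 21508 and 21330.3 in cells labelled CB2-/- and 12619.8, 13139 and 14591 in wild type, H2-K1 70696, 73652 and 73520.5 and 43807, 41628 and 49168. For Tap1 the order was the other way, 7316, 7989.8 and 8200.4 and 10474, 10696 and 11412, and also for Nlrc5, 3855, 3511 and 3401 and 5272, 5707 and 5548, and H2-T23, 12026, 12799 and 12758 and 15510.2, 15124 and 16764. So the heavy chains H2-K1, H2-D1, H2-Q6, H2-Q7 and H2-T22 ended higher in cells labelled CB2-/- despite the smaller log2 change, while H2-T23, Tap1 and Nlrc5 ended lower. These levels compare different number series and were not tested.

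After PolyI:C, Nlrc5 read 1107, 1353 and 1193 in cells labelled CB2-/- and 4428, 3963 and 3393 in wild type. Its response differed by -1.36 ± 0.33 (limma adjusted p = 0.00337). Tap1 read 3607, 4022 and 3621 and 5345, 7191 and 7052, H2-T22 5756, 6513 and 6217 and 10835, 12945 and 12957, with response differences of -2.15 ± 0.22 and -2.77 ± 0.23. All 3 were lower in every library labelled CB2-/- than in any wild-type one. H2-K1 read 54919, 55402 and 54064 and 45138, 45438 and 46753, higher in cells labelled CB2-/-.

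The LPS plus interferon-γ response of Nlrc5 itself differed by -0.29 ± 0.33 (95% interval -0.98 to 0.39, limma adjusted p = 0.665) and that of Tapbp by -0.55 ± 0.24 (-1.05 to -0.05, 0.16), neither called. Quantile scaling left 5 of the 10 called for each of these stimuli. It moved H2-K1 to 0.12 after LPS plus interferon-γ (limma adjusted p = 0.766), a change of sign, and the H2-K1 call was also lost without library 3012, 3017, 2049 or 2050 (up to 0.062). After PolyI:C, H2-D1, B2m, Tapbp, H2-K1 and Nlrc5 lost their call under quantile scaling with the direction kept. H2-Q6, H2-Q7, H2-T22, H2-T23 and Tap1 kept theirs for both stimuli. Of the 13 supply and loading genes 5 had a lower response after LPS plus interferon-γ and 9 after PolyI:C, with 0 higher in either. Of the 15 chains 4 and 7 were lower and 2 and 3 higher, and of the 21 transcription genes 3 and 5 were lower and 2 and 1 higher. Over all 14668 genes tested, 584 and 1591 had a higher response. Hfe stood at the other end, with responses higher by 3.25 and 2.78.

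The CpG response went the opposite way, higher in cells labelled CB2-/- for 4 genes (6.11% of all genes): Tapbp (0.81 ± 0.24), H2-T23 (0.65 ± 0.20), H2-K1 (0.61 ± 0.15) and H2-D1 (0.56 ± 0.15). Of these Tapbp, H2-T23 and H2-D1 fell in wild type and were not called in cells labelled CB2-/-. Tapbp and H2-T23 still read lower there in every CpG library than in any unstimulated one, while the H2-D1 libraries overlapped. H2-Q6 and H2-Q7 rose in both genotypes, and their response differences had 95% intervals of -0.37 to 0.32 and -0.37 to 0.58. The 4 calls did not hold in every fit: 0 remained when only the compared libraries were fitted or all 6 unstimulated wild-type libraries were pooled. Of the 12 fits that each left out 1 library, 9 lost the call of H2-T23 and 8 that of Tapbp. Supply and loading genes gave 2 higher and 2 lower responses of 13, chains 4 and 0 of 15, and transcription genes 9 and 1 of 21. Over all 14668 genes tested, 830 had a lower response.

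**Figure D3:**
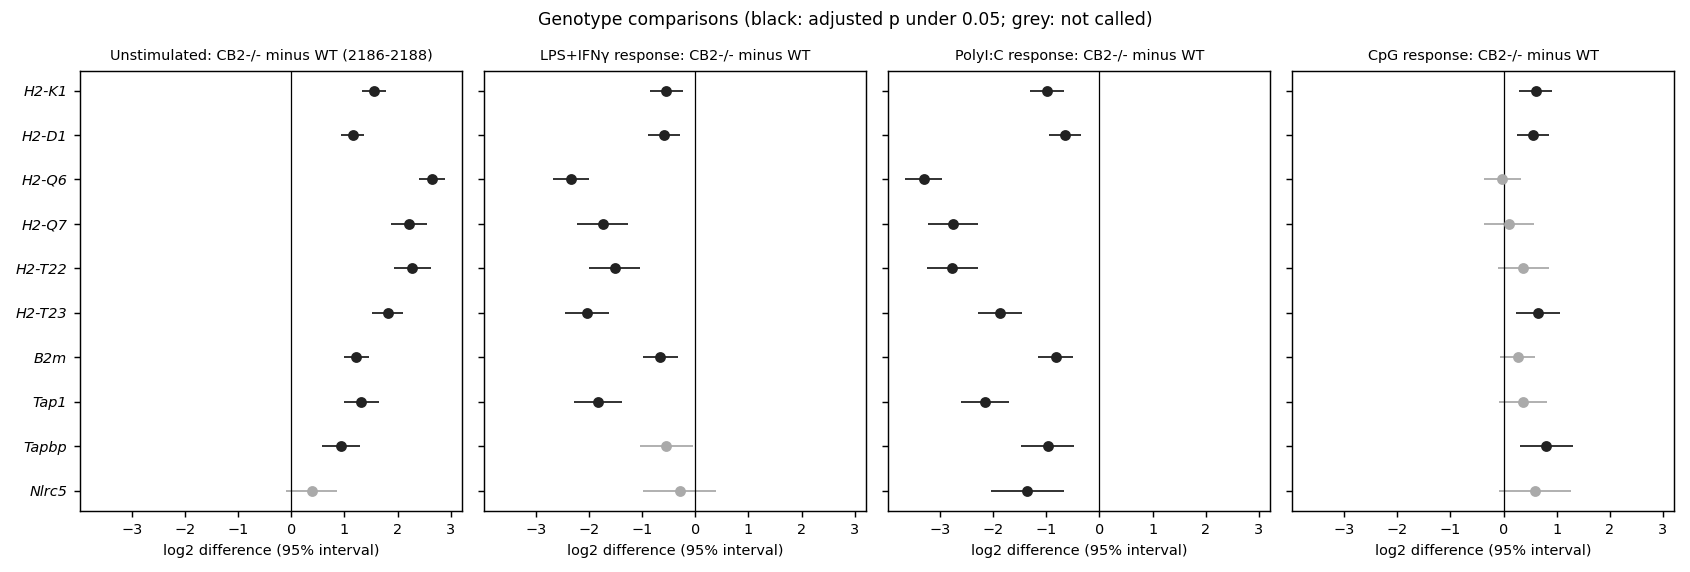
Log2 differences between libraries labelled CB2-/- and wild type, with 95% intervals from limma, in unstimulated cells (left) and in the response to each stimulus (the other 3 panels). Black points were called and grey ones were not, and unstimulated differences lie right of 0 while responses to LPS plus interferon-γ and PolyI:C lie left of it.

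At like counts of Nlrc5, the activator of the group, counts of H2-K1 and Tap1 differed between libraries labelled CB2-/- and wild type. These libraries also differ in number series, which cannot be told apart from genotype. Whether Nlrc5 acts on these genes here was not tested. In unstimulated cells labelled CB2-/-, H2-K1 and Tap1 were above all unstimulated wild-type libraries at Nlrc5 counts of 479.7, 465 and 541, inside the wild-type range of 232 to 841. After CpG in cells labelled CB2-/-, H2-K1 read 42947, 41261 and 45636, close to the 43807, 41628 and 49168 of wild type after LPS plus interferon-γ, with Nlrc5 at 602, 430.2 and 481 against 5272, 5707 and 5548. Across the 9 group means of log2 values, Pearson r of Nlrc5 with the other members ran from 0.70 (H2-K1) to 0.92, below the 0.997 of H2-Q6 with H2-Q7, a pair that shares sequence. These correlations describe 9 means that share the same libraries and carry no test.

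**Figure D4:**
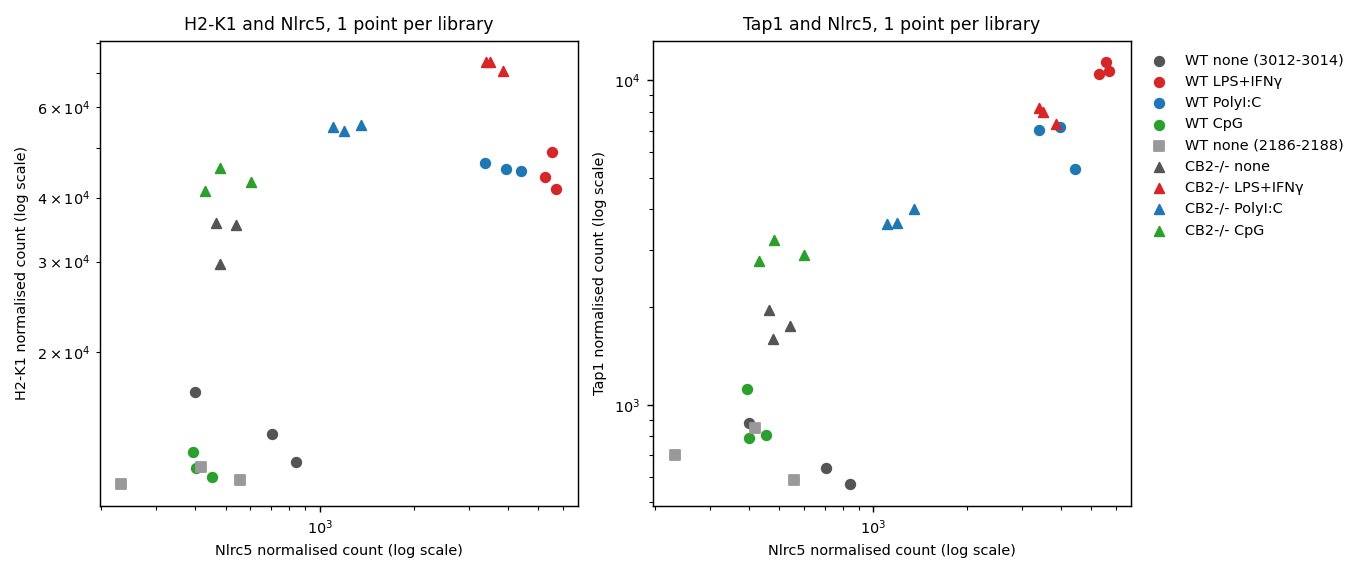
Normalised counts of H2-K1 (left) and Tap1 (right) against Nlrc5, both axes on a log scale, 1 point per library, coloured by stimulus and shaped by genotype and number series. Unstimulated and CpG libraries labelled CB2-/- stand above wild-type libraries with the same Nlrc5 count, which runs from 430.2 to 602 in the former after CpG. Genotype and number series cannot be told apart here.

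The 2 unstimulated wild-type groups were not alike in every member. Libraries 2186 to 2188 were lower than 3012 to 3014 for B2m (25579, 19876 and 20174 against 26224, 34678 and 31622, -0.50 ± 0.11) and Nlrc5 (418, 558 and 232 against 841, 400.0 and 706, -0.71 ± 0.23), and higher for H2-Q6 (0.36 ± 0.12). That is 1 higher and 2 lower of 10, where 6.33% of all genes were called higher and 5.66% lower, and the Nlrc5 and H2-Q6 calls were marginal (limma adjusted p = 0.0495 and 0.05), with overlapping groups. The furthest of these was -0.71 for Nlrc5. These values compare wild-type libraries only. They do not measure any difference between the sets of libraries in the unstimulated genotype comparison, and its part there was not tested.

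Ordered by group mean, unstimulated wild type of both series and CpG in wild type were the 3 lowest groups for 9 of the 10 genes, Nlrc5 being the other. Unstimulated and CpG-treated cells labelled CB2-/- came next for the same 9, and the order of the remaining 4 groups differed between genes. H2-K1 was lowest in unstimulated wild type of both series and after CpG in wild type (group means 11397 to 14219, neighbours overlapping). It was next in unstimulated cells labelled CB2-/- (33551), then in 3 overlapping groups between 43282 and 45776, and highest after PolyI:C and LPS plus interferon-γ in cells labelled CB2-/- (54795 and 72623). For H2-D1, H2-Q6, H2-Q7 and B2m the highest group was likewise LPS plus interferon-γ in cells labelled CB2-/-, and also for Tapbp, although for Tapbp and for B2m (75192 ± 2080.0, SD, n = 3) it overlapped wild type (71569.5 ± 2914). For H2-T23, Tap1 and Nlrc5 the highest was LPS plus interferon-γ in wild type, with no overlap with the next group. For H2-T22 it was PolyI:C in wild type (12246 ± 1222), which overlapped LPS plus interferon-γ in cells labelled CB2-/- (11654 ± 247).

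Set against B2m within each library, H2-Q6 and H2-K1 had higher mean counts relative to the light chain after LPS plus interferon-γ than before, while H2-D1 in wild type differed by less than its SD. The count of H2-Q6 was 2.16% ± 0.124 (SD, n = 3) of the B2m count in unstimulated wild type, 18.8% ± 1.99 after LPS plus interferon-γ and 23.2% ± 1.73 after PolyI:C. It was 3.89% ± 0.117 in libraries 2186 to 2188 and 10.4% ± 0.994 in unstimulated cells labelled CB2-/-. H2-K1 went from 46.1% ± 2.24 to 62.8% ± 6.43 in wild type and from 66.0% ± 5.42 to 96.6% ± 1.95 in cells labelled CB2-/-, whereas H2-D1 stood at 78.9% ± 6.92 and 80.8% ± 6.52 in wild type. Counts are not corrected for transcript length, so the percentage itself is no ratio of molecules, and the comparison is between groups. Nlrc5 was 0.978% ± 0.112 in unstimulated cells labelled CB2-/- and 1.86% ± 0.852 in libraries 2186 to 2188.

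Outside the group, the genes whose 9 group means of log2 values lay closest to the mean profile of the 10 members were Gbp7 (Pearson r = 0.995), Mlkl (0.994), Xaf1 (0.992), Isg15 (0.992), Gm20496 (0.988), Parp10 (0.985), Ifit1 (0.985) and Herc6 (0.984). Gm20496 stood at low counts, its group means running from 0.591 ± 1.02 (SD, n = 3) in libraries 3012 to 3014 to 22.6 ± 13.7. The members' own r with the mean profile ran from 0.851 (Nlrc5) to 0.985 (H2-T22 and B2m), each member being part of it. Spread between the 3 libraries of a group, as the coefficient of variation over the 10 members, had a median of 2.73% after LPS plus interferon-γ in cells labelled CB2-/- and 14.9% in unstimulated wild type 3012 to 3014.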

How the data were processed

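RNA of 27 libraries of cultured neonatal microglia was read as 75 bp single-end sequences, per the labels' protocols, which describe a TruSeq and a SMART-Seq2 low-input preparation without saying which library had which. CASAVA 1.8, kallisto and DESeq2 are named per the submitters' processing notes, with no role given, while build and annotation were not given in the sources used here. Values deposited by the authors are normalised counts, a non-negative signal. Since 46.6 to 57.3% of low values per library came out as whole multiples of a smallest step (tolerance 0.01), whole reads were not recovered, the depth is unknown and no count test was run. The authors also deposited a batch-corrected log2 table, used as an alternative; which batches it removes is not given.

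Values were analysed as log2(value + 1). The 14668 of 23995 genes reaching 10 in 3 or more libraries entered 1 fit with limma 3.58.1 under R 4.3.3 (linear model, empirical Bayes with a mean-variance trend, 9 groups, 18 residual degrees of freedom, two-sided, Benjamini-Hochberg over all genes tested, threshold 0.05). The fit was tested on simulated data. Groups came from the labels. All 10 members are named, and from the wider pathway lists (chains, supply and loading, transcription) the 2 highest and 2 lowest log2 changes of a comparison could be named, with further names marked as chosen after their values were seen. The transcription and microglial marker lists were shortened by 1 gene each, which is not reported here. Of 22 listed chains 17 were in the table and 15 were tested. Members, lists and tests were chosen with earlier results of these data known. Alternatives varied the pseudocount (10), filter (50, or none), scaling (quantile), libraries fitted, library weights, variance trend, input table and pooling of unstimulated wild type, and left out each library in turn. No 2 replicate libraries held identical values, and chi-square per degree of freedom between replicates ran from 5.87 to 645, so none were merged. Gene positions and 31-base words used the GENCODE M21 annotation of GRCm38, in which 23933 of 23995 identifiers were found once version numbers were dropped. Figures used matplotlib 3.10.9, pandas 2.3.3 and Python 3.11.15.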

Additional observations from a re-analysis of the deposited data

Results flagged for a closer look

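All results here are tested differences between the genotypes in a response (log2, response in libraries labelled CB2-/- minus response in wild type, from the limma fit), and each was listed because that difference passed the threshold. After LPS plus interferon-γ they were -0.55 for H2-K1, -0.58 for H2-D1, -2.34 for H2-Q6, -1.75 for H2-Q7, -1.52 for H2-T22, -2.04 for H2-T23, -0.66 for B2m and -1.84 for Tap1. After PolyI:C they were -0.99 for H2-K1, -0.65 for H2-D1, -3.31 for H2-Q6, -2.76 for H2-Q7, -2.77 for H2-T22, -1.88 for H2-T23, -0.83 for B2m, -2.15 for Tap1, -0.98 for Tapbp and -1.36 for Nlrc5. After CpG they were 0.61 for H2-K1, 0.56 for H2-D1, 0.65 for H2-T23 and 0.81 for Tapbp. Genotype and number series cannot be told apart in these differences, and no cause was tested.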

How the results depend on the processing

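Counts given first are of the 10 genes. No paired analysis was possible because replicate numbers follow the order of the records and no library number is shared between groups. All 10 stayed called under each alternative run and each library left out for LPS plus interferon-γ and for PolyI:C in wild type and for either against CpG in wild type, as did 9 for unstimulated cells. With library weights the CpG count in wild type went from 6 to 10, and with the compared libraries alone to 4. With 1 library left out it was 5 to 8, B2m losing its call without 3013, 3014, 3018 or 3020. In cells labelled CB2-/-, leaving out 1 library gave 7 to 8 for PolyI:C (8), 4 to 5 for CpG (5) and 8 for LPS plus interferon-γ against PolyI:C (9), the gene lost being H2-D1, H2-K1 and H2-D1. Quantile scaling gave 8 for LPS plus interferon-γ (10), 7 for PolyI:C, 6 for LPS plus interferon-γ against PolyI:C and 7 for it against CpG (10). With quantile scaling the differences between genotypes went from 8 to 5 (LPS plus interferon-γ) and from 10 to 5 (PolyI:C), H2-K1 turned to 0.12 in the first, which was 7 to 8 with 1 library left out, and H2-D1 turned to -0.078 for LPS plus interferon-γ against CpG in cells labelled CB2-/-. The difference in CpG response went from 4 to 0 with the compared libraries alone, 2 without the variance trend and 0 with unstimulated wild type pooled. Leaving out 1 library gave 2 to 5, with 2 without wild-type library 3012 or 3020 or without 2048, 2050, 2054 or 2055. The 2 unstimulated wild-type groups differed in 3 genes, and in 5 with a pseudocount of 10, 6 with the stricter filter, 5 with quantile scaling, 0 with the compared libraries alone, 6 with library weights, 1 without the variance trend, 0 in the batch-corrected table and 1 to 4 with 1 library left out, the lowest without 3014. LPS plus interferon-γ against PolyI:C in wild type went from 2 to 5 with library weights and with the batch-corrected table. PolyI:C against CpG in cells labelled CB2-/- went from 6 to 3 without the variance trend and to 3 with any compared library left out. The cause was not tested.

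Over all genes, library weights raised most counts of calls, for example from 1810 to 4453 for the genotype difference after LPS plus interferon-γ, 1726 to 2967 after CpG, 3636 to 5528 after PolyI:C, 1452 to 2543 for unstimulated genotypes, 3471 to 5603, 1254 to 2040 and 2092 to 4158 for LPS plus interferon-γ, PolyI:C and CpG in cells labelled CB2-/-, and 1758 to 3232 for the number series. They moved stimulus pairs from 1358 to 2755 (LPS plus interferon-γ against PolyI:C, wild type), and in cells labelled CB2-/- from 1747 to 2741 (the same pair), 1493 to 3723 (LPS plus interferon-γ against CpG) and 1754 to 2962 (PolyI:C against CpG). The batch-corrected table gave 2924 for the genotype difference after LPS plus interferon-γ, 3445 for unstimulated genotypes, 2250 for PolyI:C in cells labelled CB2-/-, 0 for the number series, and 2187, 2772, 2347 and 2932 for the 4 stimulus pairs. With the compared libraries alone CpG gave 2673 in wild type (5285) and 3299 in cells labelled CB2-/-, unstimulated genotypes 911, the number series 657, PolyI:C against CpG in wild type 2022 (4412) and LPS plus interferon-γ against CpG in cells labelled CB2-/- 2956. Pooling unstimulated wild type gave 2209 for unstimulated genotypes. With quantile scaling the all-gene median of the log2 changes went from 0.05 to -0.06 (LPS plus interferon-γ, wild type), -0.09 to 0.05 (CpG, wild type), 0.10 to -0.02 (difference in CpG response), 0.15 to -0.13 (LPS plus interferon-γ against CpG, wild type) and 0.02 to -0.13 (PolyI:C against CpG, wild type). It also moved higher and lower calls from 750 and 504 to 678 and 787 (PolyI:C, labelled CB2-/-), 584 and 1226 to 813 and 1002 (genotype difference, LPS plus interferon-γ), 2887 and 1925 to 2122 and 2737 and 2578 and 1834 to 1985 and 2268 (LPS plus interferon-γ and PolyI:C against CpG, wild type) and 933 and 560 to 810 and 893 (LPS plus interferon-γ against CpG, labelled CB2-/-). Of the log2 changes of single members, 1325 kept direction and side of the threshold, 55 gained and 48 lost their call and 2 turned. With libraries left out 1124 kept both, 12 gained and 64 lost their call. The number of reads behind each value is unknown, so no counting interval is given.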

Other observations

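Among the other chains, Hfe and Mr1, class I-like molecules known for iron sensing and for presenting vitamin B metabolites, fell in wild type under all 3 stimuli. Hfe averaged 804 ± 58.3 (SD, n = 3) in wild-type libraries 3012 to 3014, then 37.7 ± 13.5 after LPS plus interferon-γ, 73.0 ± 6.80 after PolyI:C and 130.2 ± 29.4 after CpG. In cells labelled CB2-/- it averaged 186 ± 25.7 unstimulated and 81.2 ± 10.2, 120.7 ± 41.4 and 83.4 ± 11.1 after the same stimuli, the PolyI:C change not being called (limma adjusted p = 0.198). In libraries 2186 to 2188 Hfe averaged 313 ± 138, lower than in 3012 to 3014 (log2 difference -1.47 ± 0.30, limma adjusted p = 0.00157). Its comparison of responses between genotypes does not use 2186 to 2188. Genotype and number series cannot be told apart in that comparison, and no cause was tested. Mr1 averaged 153 ± 46.7 in libraries 3012 to 3014 and 19.6 ± 6.11, 27.7 ± 17.1 and 24.4 ± 19.4 after LPS plus interferon-γ, PolyI:C and CpG. In cells labelled CB2-/- only its fall after CpG was called, from 89.2 ± 8.14 to 26.2 ± 1.03.

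Tapbpl, a relative of tapasin that edits the peptides bound to class I, changed in wild type by 2.67 ± 0.17 (log2, SE) after LPS plus interferon-γ, 1.18 ± 0.17 after PolyI:C and -1.33 ± 0.17 after CpG, all called by limma. H2-K2, a heavy chain gene at low counts, averaged 58.0 ± 27.4 in libraries 3012 to 3014 and 6.97 ± 3.68 after CpG, but 44.9 ± 7.72 and 87.3 ± 7.66 in cells labelled CB2-/-, where the change was not called. These CpG responses differed by 3.88 ± 0.51 (limma adjusted p = 1.69e-05). All 4 genes were picked with their values in view.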
